A study of Mus musculus with 9 samples.

Results

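Chemokines are small secreted proteins that guide the migration of leukocytes. The 10 chemokine ligand genes described here are Ccl3, Ccl4, Ccl5, Ccl6, Ccl8, Ccl9 and Ccl24 of the CC family and Cxcl2, Cxcl13 and Pf4 of the CXC family, named for the spacing of their first conserved cysteines. They were taken by gene name from the 55322 genes of the expression table, and all 10 were found. They were chosen with their levels in all 3 groups known, so their levels, differences and calls are given as a description, and nothing is read from how many of them were called.

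RNA was sequenced from 3 groups of 3 libraries each, all from C57BL/6 WT mice whose age is not given. The B cells came from BM taken 48 h after mice had received LPS (5 mg/kg, intraperitoneal), a molecule of the Gram-negative cell wall that drives emergency myelopoiesis, and were sorted as CD11b- B cells or as CD11b+ B cells, which are called M-B cells here. Cells carrying markers of T cells (CD3, CD4, CD8), granulocytes (Gr-1), NK cells (NK1.1) or erythroid cells (TER119) were removed beforehand with antibodies. Peritoneal macrophages (PMs, CD11b+F4/80+) came from naive mice that received no LPS, so cell type, tissue and LPS cannot be told apart in any comparison with PMs. The labels do not say whether the replicates of a group came from separate mice, and a p-value then measures only the spread between these libraries.

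Chemokines act on G protein-coupled receptors, and most ligands of the CC family share receptors with one another. Ccl3, Ccl4 and Ccl5 draw monocytes, macrophages and T cells. Ccl6 and Ccl9 are rodent ligands of Ccr1 that myeloid cells make in large amounts. Mouse Ccl8 acts on Ccr8, and Ccl24, an eotaxin, acts on Ccr3. Cxcl2 recruits neutrophils through Cxcr2, Cxcl13 brings B cells into follicles and body cavities through Cxcr5, and Pf4 (platelet factor 4) is best known from the granules of megakaryocytes and platelets.

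Most of the genes lie near others of the set. On GRCm38, with positions of GENCODE release M21, Ccl8 (ENSMUSG00000009185) lies at chr11:82115185-82116799 on the plus strand, and Ccl5 (ENSMUSG00000035042) follows 1409 kb further on, at chr11:83525778-83530518 on the minus strand. Ccl9 starts 42.4 kb beyond Ccl5, Ccl6 9.25 kb beyond Ccl9, Ccl3 54.8 kb beyond Ccl6 and Ccl4 13.2 kb beyond Ccl3. Pf4 and Cxcl2 lie 130 kb apart on chromosome 5. Cxcl13 lies 5051 kb beyond Cxcl2, and Ccl24 39609 kb beyond Cxcl13. Of the 10 genes, Ccl6 overlaps an annotated gene, E230016K23Rik on the opposite strand, and no strand setting for the read counting was found in the methods or labels. Whether exons of the 2 genes overlap was not examined, so it is not known whether the reads counted for Ccl6 were affected.

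RefSeq promoters (GRCm38.p6) matched 7 of the 10 genes. Ccl4, Ccl5 and Ccl24 had no entry. The 250 bases before the start were searched for 6 short motifs. The stretches below belong to genes with unlike levels: Ccl8, which was highest in M-B cells, and Ccl9, Cxcl2 and Pf4, which were highest in PMs. Capitals mark motif matches, and each sequence is written 5′ to 3′ on the strand of its gene, up to the base before the annotated gene.
Ccl8 (chr11:82115065-82115184, plus strand): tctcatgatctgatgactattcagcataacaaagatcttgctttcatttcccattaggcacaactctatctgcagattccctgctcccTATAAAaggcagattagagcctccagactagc
Ccl9 (chr11:83578637-83578756, minus strand): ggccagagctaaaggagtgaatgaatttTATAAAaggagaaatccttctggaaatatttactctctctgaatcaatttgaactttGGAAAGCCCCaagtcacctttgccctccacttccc
Cxcl2 (chr5:90903779-90903870, plus strand): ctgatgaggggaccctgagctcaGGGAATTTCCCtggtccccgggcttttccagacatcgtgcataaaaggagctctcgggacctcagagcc
Pf4 (chr5:90772315-90772434, plus strand): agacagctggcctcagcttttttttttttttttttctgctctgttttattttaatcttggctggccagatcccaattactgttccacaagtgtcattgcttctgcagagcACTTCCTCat

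The TATA box (TATAAA, gene strand) was found in Ccl8, Ccl9 and Cxcl13, and in 7.59% of all 32841 promoters of the same length. The NF-kB consensus, searched on both strands like the motifs that follow, was found in Ccl9 and Cxcl2, where 2 overlapping matches share most of their bases, and in 7.25% of all promoters. The PU.1 motif (GAGGAAGT) was found in Pf4 and in 2.44% of all promoters, and the C/EBP motif (TTGCNNAA) in Cxcl13 and Pf4 and in 9.57%. The interferon regulatory factor motif (2 copies of GAAA spaced by 2 bases) and the STAT motif (TTCNNNGAA) matched none of the 7 genes and 2.98% and 7.02% of all promoters. Such a match is a string of letters and was not tested as a binding site.

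The libraries held 18014658 to 35251215 reads on genes. Levels are given as FPKM (reads scaled to the exon length of the gene and to the reads on genes of the library), which allows genes of unlike length to be compared. Ms4a1, which marks B cells, ranged from 272 to 635 FPKM in the 6 B cell libraries, against at most 5.57 in PMs. Itgam, which encodes CD11b, was at 1.31 to 1.92 FPKM in M-B cells, against 0.251 to 0.869 in CD11b- B cells. It was at 251 to 358 FPKM in PMs. Adgre1 (F4/80) was at 2.7 to 3.42, 0.279 to 1.49 and 232 to 345 FPKM in the same order. In bulk libraries, fewer cells of a type and less RNA per cell cannot be told apart.

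The 10 genes together made up 1.42 to 1.46% of all FPKM in PMs, with a sum of 6009 to 6573 FPKM. The sum was 19.3 to 28.3 FPKM in M-B cells and 5.24 to 11.1 FPKM in CD11b- B cells, so the groups did not overlap and stood in the order PMs, M-B cells, CD11b- B cells. Their composition also differed. Pf4, Cxcl13 and Ccl6 made up 91.8 to 92.0% of the sum in PMs, 65.5 to 89.5% in CD11b- B cells and 47.3 to 56.3% in M-B cells.

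**Figure D1:**
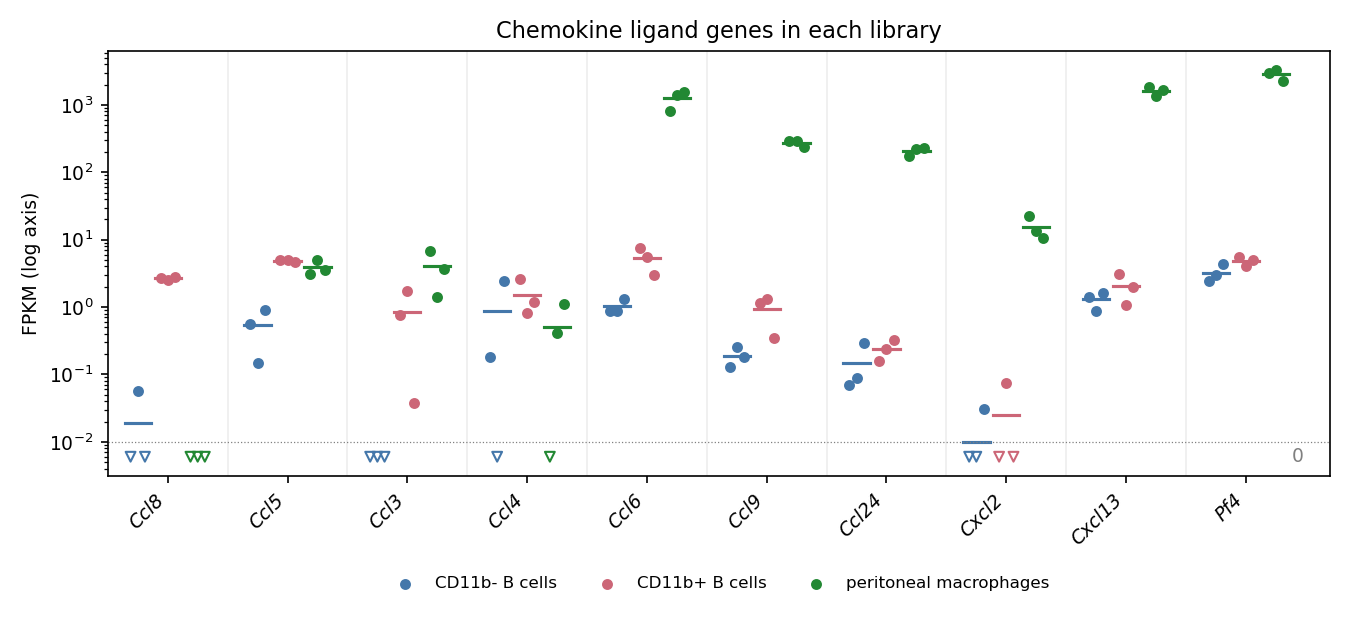
Level of each chemokine ligand gene in each library (FPKM, log axis). Points are single libraries of CD11b- B cells (blue), M-B cells (CD11b+ B cells, red) and peritoneal macrophages (green), bars are group means of 3 libraries, and open triangles below the dotted line are libraries with no read. Ccl8 stands at 2.54 to 2.83 FPKM in M-B cells and at or near 0 elsewhere, Ccl5 is similar in M-B cells and macrophages, and the 6 genes on the right are far higher in macrophages.

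Ccl8 was the gene whose level was highest in M-B cells and at or near 0 in both other groups. It stood at 2.73, 2.54 and 2.83 FPKM in the 3 libraries of M-B cells, at 0, 0.0561 and 0 in CD11b- B cells and at 0 in all 3 libraries of PMs. The M-B cell libraries lay close together, with a coefficient of variation of 5.44%, and overlapped neither other group. These values rest on 126 reads in M-B cells and 1 read in CD11b- B cells, and PMs had none. The ratio of pooled levels of M-B cells to CD11b- B cells was 139, with a 95% exact interval of 24.5 to 5542, and without CD11b- replicate 2, which held the single read, Ccl8 was at least 30.3-fold higher. Against PMs it was at least 31.2-fold higher, setting the group at the 3 reads that a count of 0 allows, and at least 17.7-fold higher without PM replicate 2, the deepest PM library. Reads from amplified cDNA carry no molecular identifiers, so these intervals and limits cover counting error only.

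Ccl5, which is made by activated lymphocytes and by macrophages, had nearly the same level in each M-B cell library. It stood at 4.97, 5.05 and 4.61 FPKM in M-B cells, at 0.562, 0.149 and 0.910 in CD11b- B cells and at 3.12, 4.96 and 3.51 in PMs. M-B cells were above CD11b- B cells in every library, while M-B cells and PMs overlapped. The pooled ratio of M-B cells to CD11b- B cells was 9.16 (95% exact interval 6.84 to 12.5), and 13.8 without CD11b- replicate 3. The mean of M-B cells was 126% of that of PMs, and CD11b- B cells had 14.0%. On the log2(FPKM + 1) scale M-B cells exceeded PMs by 0.29 (SE 0.26), and this difference turned to -0.17 when the libraries were rescaled by median ratios.

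Ccl3 and Ccl4, neighbours on chromosome 11 that both attract monocytes and macrophages, were uneven. Ccl3 stood at 0.756, 1.75 and 0.0370 FPKM in M-B cells, at 0 in all 3 libraries of CD11b- B cells and at 6.88, 1.43 and 3.69 in PMs. The M-B cell libraries differed 47.1-fold among themselves, and the lowest, replicate 3, rested on 1 read of the 53 in the group. Ccl3 was at least 19.5-fold higher in M-B cells than in CD11b- B cells, at least 9.31-fold without M-B cell replicate 2, 31.3-fold without M-B cell replicate 3 and 12.7-fold without CD11b- replicate 2. M-B cells overlapped PMs, and CD11b- B cells were at least 91.3-fold below them, or at least 59.5-fold without CD11b- replicate 2.

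Ccl4 stood at 2.58, 0.810 and 1.2 FPKM in M-B cells, at 0.182, 0 and 2.41 in CD11b- B cells and at 0, 0.415 and 1.13 in PMs. All 3 groups overlapped. The pooled ratio of M-B cells to CD11b- B cells was 1.85 (95% exact interval 1.31 to 2.63) and depended on CD11b- replicate 3, since it was 17.3 without that library. It was 1.21 (0.854 to 1.72) without CD11b- replicate 2, and 1.25 (0.814 to 1.90) without M-B cell replicate 1.

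The other 6 genes were PM genes. Pf4 ranked 18th of the 22139 genes with a read in PMs by mean FPKM, Cxcl13 30th, Ccl6 37th, Ccl9 178th, Ccl24 234th and Cxcl2 2698th. Pf4 stood at 2983, 3290.0 and 2257 FPKM in PMs, Cxcl13 at 1850.3, 1340 and 1690.1, and Ccl6 at 815, 1405 and 1578. Ccl9, the neighbour of Ccl6, had 288, 294 and 238 FPKM, Ccl24 had 177, 224 and 226, and Cxcl2 had 22.5, 13.6 and 10.7. Every PM library was above every B cell library for each of these genes, a pattern that 12.4% of all genes tested had against M-B cells and 15.2% against CD11b- B cells.

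Of these 6 genes, Ccl6 and Ccl9 were higher in every M-B cell library than in any library of CD11b- B cells. Ccl6 stood at 7.40, 5.45 and 2.99 FPKM in M-B cells and at 0.885, 0.878 and 1.32 in CD11b- B cells, a pooled ratio of 5.01 (95% exact interval 4.27 to 5.91). Ccl9 stood at 1.16, 1.33 and 0.345 FPKM in M-B cells and at 0.128, 0.254 and 0.184 in CD11b- B cells, a pooled ratio of 4.71 (3.52 to 6.38). For both genes M-B cell replicate 3 was the lowest library of its group, 2.48-fold below the highest for Ccl6 and 3.86-fold for Ccl9. The ratio of Ccl6 to Ccl9 was 2.83 to 6.64 in PMs, 3.46 to 7.16 in CD11b- B cells and 4.10 to 8.67 in M-B cells, so the ranges overlapped although the levels were far apart.

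Pf4, Cxcl13 and Ccl24 were low in B cells of either kind. Pf4 stood at 5.48, 4.08 and 4.92 FPKM in M-B cells and at 2.45, 2.94 and 4.33 in CD11b- B cells, a pooled ratio of 1.51 (95% exact interval 1.27 to 1.79). Cxcl13 stood at 3.05, 1.06 and 2.0 FPKM in M-B cells and at 1.43, 0.872 and 1.6 in CD11b- B cells. Ccl24 had 0.158, 0.236 and 0.329 FPKM in M-B cells and 0.0694, 0.0885 and 0.289 in CD11b- B cells. The libraries of the 2 kinds of B cells overlapped for all 3 genes. The pooled ratio was 1.6 for Cxcl13 (1.29 to 1.99) and 1.69 for Ccl24 (0.914 to 3.18), and that of Ccl24 was 3.11 without CD11b- replicate 3. That of Cxcl13 was 1.24 (0.961 to 1.59) without M-B cell replicate 1. Cxcl2 had 4 reads over the M-B cell libraries and 2 over the CD11b- libraries, at or close to the limit that a count of 0 allows, against 2105 in PMs.

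Set against their own PM means, the group means of these 6 genes in CD11b- B cells ran from 0.0645% for Cxcl2, which rested on 2 reads, to 0.114% for Pf4. The 17 monocyte and macrophage markers, summed, stood at 0.109 to 0.153% of their PM mean in the same libraries. The median of the single markers was 0.0980%, and they ran from 0.0682% to 1.12%, apart from Ms4a6c at 130%. In M-B cells Ccl24, Pf4, Cxcl13 and Cxcl2 were at 0.115 to 0.170% of their PM means, Ccl9 at 0.346% and Ccl6 at 0.417%. The summed markers were at 0.720, 0.664 and 0.290% in M-B cell replicates 1 to 3, and the median of the single markers was 0.869%. Timd4 and Gata6, which mark resident macrophages of the peritoneal cavity, were at 0.181% and 0.201%. The largest values were those of Ms4a6c, at 188%, Cd163, at 4.87%, and Fcgr1, at 4.49%.

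**Figure D2:**
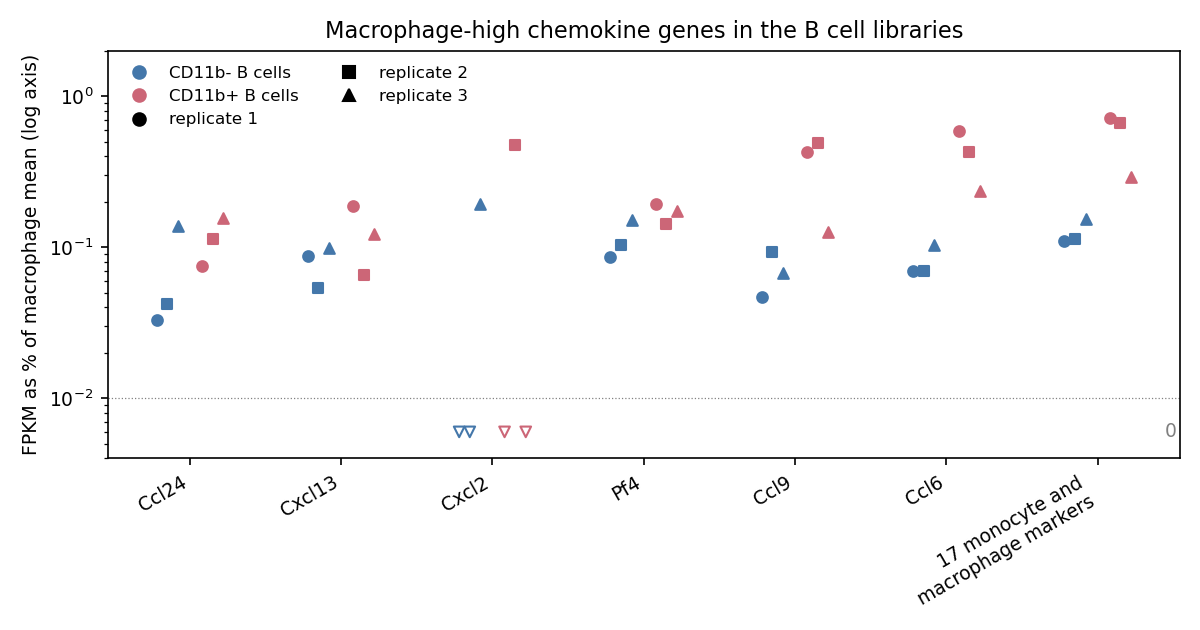
Level in each B cell library as a percentage of the mean of peritoneal macrophages (log axis) for the 6 chemokine genes that were highest in macrophages, with the summed level of 17 monocyte and macrophage markers at the right. Blue is CD11b- and red M-B cells (CD11b+), the symbols are replicates 1 to 3, and open triangles are libraries with no read. The CD11b- libraries with a read lie between 0.0332 and 0.194%, and M-B cell replicate 3 is the lowest M-B cell library for Ccl6, Ccl9 and the markers.

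Markers of other cells also differed between the M-B cell libraries. The summed level of 15 neutrophil markers was 666, 1595 and 219 FPKM in M-B cell replicates 1, 2 and 3 and 2.06 to 3.30 in CD11b- B cells. No marker of the list was at 0 in all 3 libraries of either group, while 2 to 4 were at 0 in single CD11b- libraries and 1 in M-B cell replicate 3. The monocyte and macrophage markers summed to 346, 319 and 139 FPKM in M-B cells and to 52.5 to 73.5 in CD11b- B cells, where 1 marker was at 0 in replicate 1 and none in all 3 libraries. Lyz2 (lysozyme) made up most of the difference between the M-B cell libraries, since the other 16 markers summed to 84.6, 78.7 and 74.0 FPKM in them. M-B cell replicate 3, the lowest in both lists, was also the lowest M-B cell library for Ccl3, Ccl5, Ccl6 and Ccl9, but it was the highest for Ccl8 and Ccl24. Ccl5 differed only 1.10-fold among the M-B cell libraries. All 15 neutrophil markers were tested, 13 had no overlap between the kinds of B cells and limma called 3 as higher in M-B cells. Of all genes, 8.63% had no overlap as higher and limma called 0.0689%. All 15 neutrophil markers had an unadjusted p under 0.05, and edgeR called 9 and DESeq2 14. The genes that each tool called in all are counted with the processing below. Of 16 monocyte and macrophage markers tested, 13 had no overlap and limma called none, with 12 at an unadjusted p under 0.05 (7.68% of all genes were), 2 called by edgeR and 12 by DESeq2. In the other 11 lists (B cell, plasma cell, T cell, NK cell, megakaryocyte and platelet, erythroid, basophil and mast cell, eosinophil, conventional and plasmacytoid dendritic cell, and stromal cell) limma and edgeR called none, with 0 to 4 genes of a list at an unadjusted p under 0.05 and 0 to 2 called by DESeq2. Among these lists, the 10 B cell markers summed to 5245 to 5925 FPKM in M-B cells, against 6680 to 6995 for CD11b- B cells, and 5 of them had no overlap as lower (6.32% of all genes had). The 7 erythroid markers summed to 38.9 to 49.8 against 2.22 to 25.5 FPKM and the 6 basophil and mast cell markers to 1.66 to 2.90 against 0.0206 to 0.149, also without overlap. The plasmacytoid dendritic cell markers (55.2 to 84.1 against 43.6 to 46.3 FPKM) and the stromal cell markers (0.143 to 0.238 against 0.0162 to 0.0957) did not overlap either, while the eosinophil and conventional dendritic cell sums did. The part of such cells in the levels of Ccl3, Ccl6 and Ccl9 was not tested.

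For the platelet gene Pf4, the megakaryocyte and platelet markers were examined in all 3 groups. Markers given here as at 0 were so in all 3 libraries of the group. The 10 markers summed to 2.01 to 4.0 FPKM in PMs, where Pf4 was at 2257 FPKM or more and 7 of them, including Gp9, Gp1bb, Gp5, Gp6, Ppbp and Treml1, were at 0 in all 3 libraries. Clec1b (3.09, 1.76 and 2.25 FPKM) and Itga2b (0.906, 0.232 and 0.836 FPKM) made up nearly all of the PM sum. The 10 markers summed to 1.12 to 3.44 FPKM in M-B cells, with Gp1bb at 0, and to 0.629 to 1.06 in CD11b- B cells, with Gp1bb, Gp6 and Treml1 among those at 0. These 2 ranges did not overlap. For Ccl5 and Ccl8, the 7 NK cell markers summed to 0.849 to 6.03 FPKM in M-B cells, with Klrb1c at 0, and to 0.577 to 1.54 in CD11b- B cells, with Ncr1, Gzma, Gzmb and Eomes at 0. Of the 4 tested, 3 had a higher mean in M-B cells and 1 a lower mean. Nkg7 stood at 2.68, 2.47 and 0.031 FPKM in M-B cells and at 0.0328, 0 and 0 in CD11b- B cells. Prf1 stood at 2.35, 2.20 and 0.593 against 0.719, 0.577 and 0 FPKM. The 7 T cell markers summed to 13.2 to 22.2 and 11.6 to 19.6 FPKM, with Cd4 and Cd8a at 0 in CD11b- B cells. Nearly all of this was Lck, a kinase of T cell receptor signalling, and the other 6 markers summed to 0.936 to 2.88 FPKM in M-B cells, overlapping the 0.0614 to 1.13 of CD11b- B cells. The 6 plasma cell markers summed to 286, 252 and 635 FPKM in M-B cell replicates 1 to 3 and to 101 to 179 in CD11b- B cells, with none at 0. Jchain carried the high value of replicate 3, since the other 5 summed to 185, 168 and 187 FPKM in M-B cells and to 91.3 to 156 in CD11b- B cells. The part of such cells in the levels of Pf4, Ccl5 and Ccl8 was not tested.

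Across all genes, the comparisons were made with limma on log2(FPKM + 1) with p-values adjusted by Benjamini-Hochberg over all genes tested, and a gene was called at an adjusted p under 0.05. Of the 9 chemokine genes tested between the kinds of B cells (Cxcl2 was too low), Ccl8 was past the threshold and none was lower, where 0.0689% of the 21778 genes tested were past it. Ccl8 differed by 1.86 (SE 0.20), Ccl5 by 1.96 (SE 0.27), Ccl6 by 1.57 (SE 0.32), Ccl3 by 0.77 (SE 0.32) and Ccl9 by 0.67 (SE 0.24). All M-B cell libraries were above all CD11b- libraries for 5 of the 9 genes and below them for none, against 8.63% and 6.32% of all genes. The median difference was 0.67 over the 9 genes and 0.03 over all genes. The call of Ccl8 was lost without any 1 of the 3 CD11b- libraries or without M-B cell replicate 1 or 2. It was also lost with either replicate block, with edgeR, with a pseudocount of 0.01 and without a filter, and it was kept in 7 of 17 alternatives. Since the comparison itself chose the genes, nothing is read from these counts.

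**Figure D3:**
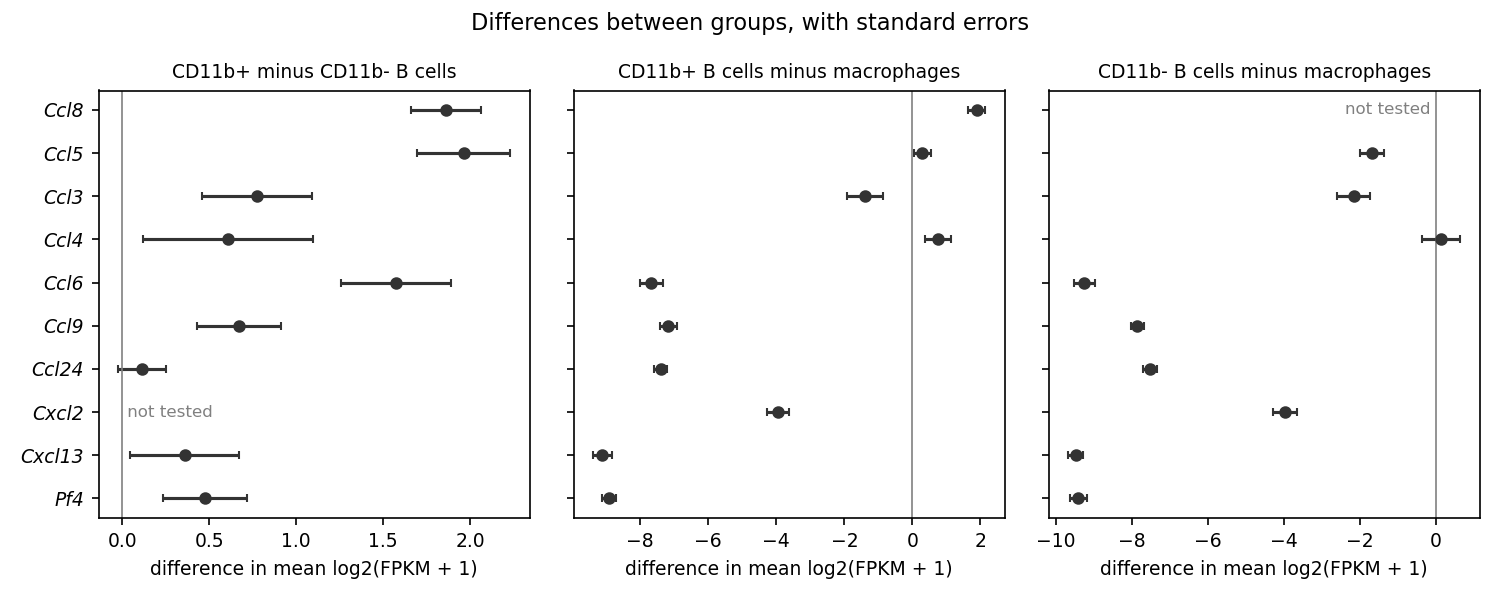
Difference between group means on the log2(FPKM + 1) scale with its standard error for each chemokine ligand gene, in 3 comparisons of 3 against 3 libraries. Genes below a mean of 0.05 FPKM were not tested. Ccl8 (1.86) and Ccl5 (1.96) differ most between B cells of the 2 kinds, and against macrophages the 6 lower genes differ by -3.95 to -9.11 in M-B cells.

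Against PMs, 6 of the 10 genes were past the threshold as lower in M-B cells and Ccl8 as higher, where 8.78% and 21.5% of the 22102 genes tested were past it as lower and higher. With median-ratio scaling the calls over all genes split evenly, with 2768 higher and 2661 lower in place of 4760 and 1940. The differences were -9.11 for Cxcl13, -8.92 for Pf4, -7.67 for Ccl6, -7.40 for Ccl24, -7.17 for Ccl9 and -3.95 for Cxcl2. Ccl3 (-1.39, SE 0.53), Ccl4 (0.75, SE 0.39) and Ccl5 (0.29, SE 0.26) were not past the threshold. Ccl3 was past it as lower in 5 of 16 alternatives (a minimum mean of 1 FPKM, all 9 libraries, median-ratio scaling, DESeq2 and without PM replicate 2). In CD11b- B cells against PMs, 8 of the 9 genes tested were past it as lower, where 11% of the 20985 genes tested were, and Ccl4 was not (0.14, SE 0.50). There, too, the calls over all genes split as 5404 higher and 2306 lower, and as 3330 and 3151 with median-ratio scaling. That scaling moved the median of all genes from 0.25 to 0.11 for M-B cells and from 0.24 to 0.06 for CD11b- B cells. Both comparisons share the PM libraries. The genes were chosen on these levels, so nothing is read from their calls against the shares of all genes.

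The receptors were not used to choose the genes, and 23 signalling and atypical chemokine receptors were examined. Of 19 tested between the kinds of B cells, none was past the threshold in limma (0.0689% of all genes were), with 5 at an unadjusted p under 0.05 (7.68% of all genes were). There, edgeR called 2 and DESeq2 4 as higher. Both tools also called more genes than limma over all genes, as counted with the processing below. Cxcr3, the receptor of Cxcl9, Cxcl10 and Cxcl11, stood at 15.7, 9.42 and 5.75 FPKM in M-B cells, at 0.589, 0.596 and 0.288 in CD11b- B cells and at 0.417, 1.13 and 0.0286 in PMs. Every M-B cell library was above every library of both other groups. The difference from CD11b- B cells was 2.83 (SE 0.35, limma adjusted p = 0.0513), just short of the threshold, and past it without M-B cell replicate 3. Ackr2, an atypical receptor that takes up inflammatory CC chemokines such as Ccl3, Ccl4 and Ccl5, stood at 8.17, 5.22 and 5.95 FPKM in M-B cells and at 1.2, 1.26 and 0.589 in CD11b- B cells, with no overlap. Its difference was 1.88 (SE 0.27, limma adjusted p = 0.0765). The 2 genes that edgeR called were Cxcr3 and Ackr2, and DESeq2 called them with Ccr2 and Cxcr2.

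**Figure D4:**
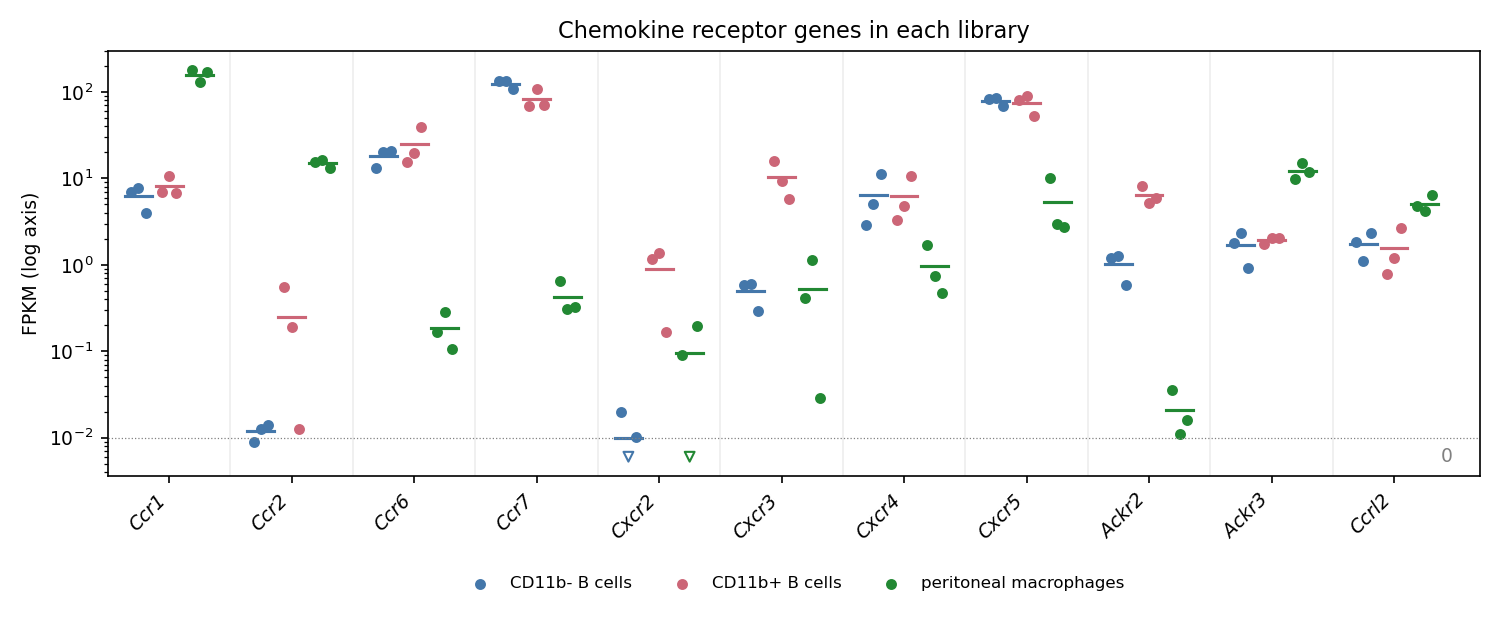
Level of chemokine receptor genes in each library (FPKM, log axis), drawn as in the plot of the ligand genes. Cxcr3 and Ackr2 lie above both other groups in every library of M-B cells, Ccr6, Ccr7 and Cxcr5 are high in B cells of either kind, and Ccr1, Ccr2 and Ackr3 are highest in macrophages.

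Receptors of the chemokine ligands were spread over the groups. Cxcr5, the receptor of Cxcl13, was at 74.7 ± 19.7 FPKM (SD, n = 3) in M-B cells and 79.5 ± 9.14 in CD11b- B cells, against 5.26 ± 4.16 in PMs, the group with the highest Cxcl13. It was higher than in PMs by 3.75 in M-B cells (limma adjusted p = 0.000449) and by 3.87 in CD11b- B cells (limma adjusted p = 0.00031). Ccr1, the receptor of Ccl6 and Ccl9, was at 159 ± 26.3 FPKM in PMs, 8.11 ± 2.13 in M-B cells and 6.25 ± 1.98 in CD11b- B cells, lower than in PMs by limma at an adjusted p of 8.35e-06 and 1.08e-05. Cxcr2, the receptor of Cxcl2 and a neutrophil marker, was at 1.16, 1.37 and 0.168 FPKM in M-B cells and at most 0.0197 in CD11b- B cells, a difference that was not past the threshold (0.85, SE 0.27, limma adjusted p = 0.511). Ccr8, the receptor of Ccl8, had 2 reads over the M-B cell libraries, 5 over the CD11b- libraries and 0 in PMs. Ccr3, the receptor of Ccl24, had no read in PMs.

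Against PMs, 6 of 18 receptors tested were higher in M-B cells (Ccr6, Ccr7, Cxcr3, Cxcr4, Cxcr5 and Ackr2) and 5 lower (among them Ccr1, Ccr2, Ackr3 and Ccrl2), where 30.3% of all genes were called in either direction. In CD11b- B cells 5 of 16 were higher (Ccr6, Ccr7, Cxcr4, Cxcr5 and Ackr2) and 6 lower (among them Ccr1, Ccr2, Cx3cr1, Ackr3 and Ccrl2), where 36.7% of all genes were called (25.8% higher and 11% lower). The calls of Cxcr4, Ccrl2 and Cx3cr1 were not firm, and that of Ackr2 in CD11b- B cells was lost with a minimum mean of 1 FPKM. Cxcr4 lost its call in M-B cells with edgeR and without M-B cell replicate 2, and in CD11b- B cells with median-ratio scaling, without a filter and without CD11b- replicate 2 or 3, and in both without PM replicate 2 or 3. Ccrl2 lost it without a filter in M-B cells, without M-B cell replicate 1 or 2, without CD11b- replicate 1 or 2, and in both without PM replicate 3, and Cx3cr1 without a filter, with a minimum mean of 1 FPKM and without any 1 of the CD11b- libraries. Ccr7, which guides B cells to the T cell zone, had the largest differences from PMs among these receptors (5.85 in M-B cells and 6.47 in CD11b- B cells on the log2 scale), at 0.428 ± 0.189 FPKM in PMs, 82.6 ± 22.7 in M-B cells and 125 ± 15.0 in CD11b- B cells. Between the kinds of B cells its libraries overlapped (-0.62, SE 0.20, limma adjusted p = 0.531).

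Of 28 other chemokine ligand genes, 5 had no read in any library. None of the 12 tested between the kinds of B cells was past the threshold in limma (0.0689% of all genes were), with 2 at an unadjusted p under 0.05 (7.68% of all genes were), Ccl2 and Cxcl10, none called by edgeR and Ccl2 called by DESeq2. Ccl2, a ligand of Ccr2 that draws monocytes, stood at 0.150, 0.537 and 1.47 FPKM in M-B cells and at 0 in all 3 libraries of CD11b- B cells. Cxcl10, a ligand of Cxcr3 induced by interferons, stood at 1.90, 3.07 and 0.554 FPKM in M-B cells and at 0, 0.662 and 0 in CD11b- B cells, which overlapped. Against PMs, limma called 4 of 16 as lower in M-B cells and none as higher, where 8.78% and 21.5% of all genes were called. Ccl22 and Cxcl10 were higher at an unadjusted p under 0.05, edgeR called none as higher and DESeq2 called Ccl22, and limma called Cxcl10 with a pseudocount of 0.1 or 0.01, a minimum mean of 1 FPKM or all 9 libraries in one fit. Without M-B cell replicate 3 limma called Ccl22, Cxcl10 and Ppbp, a platelet chemokine, as higher. Those called as lower were Cxcl16 (24.9 ± 9.59 FPKM in PMs against 0.665 ± 0.299), with a difference of -3.91, Cxcl1 (-3.03), Cxcl12 (-2.61) and Cxcl14 (-1.16). The same 4 genes and Ccl2 (limma adjusted p = 0.0234) were lower in CD11b- B cells, where 11% of all genes were. The call of Cxcl14 was lost in both comparisons with a minimum mean of 1 FPKM and without any 1 of the B cell libraries, and in M-B cells without a filter. That of Ccl2 was lost without a filter, with a minimum mean of 1 FPKM, without PM replicate 3 and without any 1 of the CD11b- libraries.

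The genes with the most similar pattern were found for each chemokine gene by the distance between its scaled log2(FPKM + 1) profile and those of 12493 genes over the 9 libraries, where 0 is an identical shape. The nearest to Ccl8 were Ly6a2 (0.125), Ighg2c (0.193), which encodes an immunoglobulin constant region, and Tigit (0.218), an inhibitory receptor of T and NK cells. Their mean levels in M-B cells were 11.1, 27.2 and 3.32 FPKM, against at most 0.450 in either other group. The nearest to Ccl5 were Ifi211 (0.432), Aif1 (0.442) and Chil3 (0.442), farther away than those of Ccl8. Ccl6 was nearest to Fcgr3 (0.0482), C1qc and Cd300ld, and Ccl9 to Apobr, App and Nupr1. Cxcl13 was nearest to Timd4, Ednrb and Cd300lg, Pf4 to Cbr2, Retnla and Ecm1, Ccl24 to Rarg, Fabp7 and Slc9a3r2, and Cxcl2 to Gm10134, Tnfsf12 and Ctnnd1, all of them high in PMs. Ccl3 was nearest to Slc7a7, Phf11a and Siglece (0.210 to 0.241), and Ccl4 had no close neighbour, the nearest being Gm16573 at 0.446.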

How the data were processed

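Full-length cDNA (SMART-seq HT) of 9 libraries was sequenced as read pairs by the authors, trimmed with Trim Galore 0.4.4, Trimmomatic 0.36 and cutadapt 1.16, mapped to GRCm38 with STAR 2.7.2b and counted with featureCounts 1.6.1. The submitters' notes name GRCm38 and GRCm39, so positions here are those of GENCODE M21 (GRCm38) by gene identifier. The authors deposited FPKM for 55322 genes. A second deposited table holds a normalized signal, counts divided by a size factor, for 11063 genes, and was used only to check the reads. Whole reads were recovered from FPKM for 100% of values, within 0.05 of a read, and 100% of the values of the second table gave the same reads.

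Groups were taken from the sample labels and compared in pairs with limma 3.58.1 in R 4.3.3 (two-sided, eBayes with a mean-variance trend). The values were log2(FPKM + 1), the fit held the 6 libraries of the pair, and genes averaging under 0.05 FPKM in them were left out. P-values were adjusted by Benjamini-Hochberg over all genes tested, with a threshold of 0.05, and the procedure was tested on simulated data. For CD11b+ against CD11b- B cells limma called 15 genes, edgeR 4.0.16 (quasi-likelihood) on the recovered reads 42, and DESeq2 1.42.0 409. Alternatives changed the pseudocount (0.1 or 0.01), the filter (none or a mean of 1 FPKM), the libraries fitted (all 9, or with each left out), the scaling (median ratio), the trend (none), the block (replicate number) or the tool (edgeR, DESeq2). Ratios of pooled reads have exact 95% intervals, with a limit of 3 reads over a group for a count of 0.

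The 10 genes and the lists (28 other ligands, 23 receptors, 26 NF-kB and immediate early genes, and 13 marker lists of 107 genes) were chosen with earlier results of these data known. Named from the lists were genes past the threshold, up to the 10 largest differences in a list and comparison, and genes with a mean of at least 10 FPKM in a group. Cxcl10, Ccl22, Cxcr2, Ccr3, Ccr8 and the NF-kB genes without overlap were named after their values were seen. The 3 nearest genes were searched among those with a mean of at least 1 FPKM. Deviations of libraries with the same number in their titles from their group means correlated at 0.284, -0.0193 and 0.206 between CD11b+ and CD11b- B cells. The libraries of the pair at -0.0193 have unlike numbers in their descriptions. Whether libraries are paired is not known, and the main fit left them unpaired. A few genes of the lists are not reported here.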

Additional observations from a re-analysis of the deposited data

How the results depend on the processing

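Counts of calls moved with the settings. The 1 chemokine gene called between the kinds of B cells became 0 with a pseudocount of 0.01, without a filter on FPKM or with edgeR, 2 with a minimum mean of 1 FPKM, with all 9 libraries in one fit or without a trend, 5 with DESeq2 (Ccl3, Ccl5, Ccl6, Ccl8 and Ccl9), and 0 to 1 with a library left out. Receptors, at 0, became 2 with a pseudocount of 0.1, a minimum mean of 1 FPKM, all 9 libraries or edgeR, 1 with a pseudocount of 0.01, 4 with DESeq2 and 0 to 1 with a library left out. DESeq2 called 1 other ligand and 3 NF-kB and immediate early genes, where limma called 0. Over all genes the 15 calls became 37 and 25 with pseudocounts of 0.1 and 0.01, 2 without a filter, 31 with a minimum mean of 1 FPKM, 36 with all 9 libraries, 42 with edgeR, 409 with DESeq2 and 3 to 40 with a library left out, the highest without M-B cell replicate 3. DESeq2 was given the 37400 genes with a read, not all of which need receive an adjusted p, and limma tested 21778. The cause of these differences was not tested.

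Whether the replicate numbers pair the libraries is not known. Both pairs of B cell libraries with the same number in their descriptions deviated together (correlations of 0.284 and 0.206), but no other B cell libraries share such a number. Of the 3 pairs by title, 1 did not deviate together (-0.0193), and its libraries have unlike numbers in their descriptions. With a replicate block by the number in the titles, 0 chemokine genes and 16 genes in all were called between the kinds of B cells, and with a replicate block by the number in the descriptions 0 and 0. Only libraries numbered 1 and 5 in the descriptions occur in both groups. The fit by descriptions could thus hardly call any gene, and nothing is read from it. Against PMs the block called 7 chemokine genes in M-B cells and 8 in CD11b- B cells, as without it, and it called no receptor, other ligand or NF-kB gene between the kinds of B cells.

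Against PMs, the 6700 genes called in all in M-B cells ranged from 4500 to 7973 over 16 alternatives, and the 7710 in CD11b- B cells from 5659 to 8347. The chemokine genes among them (7 to 8 and 8) were chosen on these levels, so nothing is read from that range. Other ligands called in CD11b- B cells against PMs (5) became 3 with a minimum mean of 1 FPKM, and 3 to 6 with a library left out, the lowest without CD11b- replicate 2. The difference of Ccl5 between M-B cells and PMs (0.29) turned to -0.17 with median-ratio scaling, -0.19 with edgeR and -0.20 with DESeq2. That of Ccl4 between CD11b- B cells and PMs (0.14) turned to -0.019 with a pseudocount of 0.01 and -0.038 with median-ratio scaling, and ranged from -0.41 without CD11b- replicate 3 to 0.48 without CD11b- replicate 2, with -0.12 without PM replicate 1. Depth limits Ccl3, Ccl8, Ccl24 and Cxcl2 in B cells, where single libraries hold few reads or none.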

Other observations

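Among 26 NF-kB and immediate early genes, several of whose products control chemokine genes in activated cells, none of the 24 tested was called between the kinds of B cells by limma, where 8 had an unadjusted p under 0.05 (7.68% of all genes had), edgeR called none and DESeq2 called Fos and Il1b as higher and Egr1 as lower. All M-B cell libraries were above all CD11b- libraries for 5 genes (Tnf, Il1b, Ier3, Traf1 and Fos) and below them for 7 (Nfkbia, Nfkbie, Tnfaip3, Nfkb2, Relb, Birc3 and Egr1), against 8.63% and 6.32% of all genes. The median difference of the 24 genes was -0.13, against 0.03 over all genes. Egr1, an immediate early transcription factor, was at 16.5 ± 1.99 FPKM (SD, n = 3) in M-B cells and 27.9 ± 2.33 in CD11b- B cells (limma adjusted p = 0.216). Nfkbie, an inhibitor of NF-kB, was at 62.0 ± 12.7 and 91.9 ± 7.75 FPKM (limma adjusted p = 0.495).

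Against PMs the same list split in both directions. Of 25 genes tested, limma called 14 as higher and 5 as lower in M-B cells, where 21.5% and 8.78% of all genes were called, and 14 as higher and 7 as lower in CD11b- B cells, where 25.8% and 11% were. With median-ratio scaling the list split as 11 higher and 7 lower in M-B cells and 10 and 7 in CD11b- B cells, and all genes as 2768 and 2661 and as 3330 and 3151. Cd83, an activation marker of B cells and dendritic cells, was at 2.29 ± 1.31 FPKM in PMs, 146 ± 47.3 in M-B cells and 193 ± 55.6 in CD11b- B cells (limma adjusted p = 1.7e-05 and 1.1e-05). Ier3, Dusp1 and Atf3, immediate early genes, were lower in B cells of either kind than in PMs, with Dusp1 at 6.02 ± 0.723, 5.03 ± 1.0 and 82.1 ± 14.8 FPKM. Ccl22, a ligand of Ccr4, was called by limma in none of the 3 comparisons, though DESeq2 called it as higher in M-B cells than in PMs, and limma did so without M-B cell replicate 3 and, for CD11b- B cells against PMs, without CD11b- replicate 3. It stood at 3.90, 2.10 and 0.0122 FPKM in M-B cells and at 0.567, 1.39 and 0.0134 in CD11b- B cells, with replicate 3 the lowest in both groups.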
